A study of Mus musculus with 8 samples.

Results

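Accessory subunits of the SWI/SNF chromatin remodeling complexes were examined in mouse lenses as 6 genes, Arid1a, Arid2, Pbrm1, Actl6a, Actl6b and Phf10. The members were all probe sets that the array annotation assigns to one of these genes alone, which gave 10 of the 22626 probe sets that are not array controls, and 6 of the 12393 genes that a probe set names alone. Pbrm1 had 3 probe sets, Arid1a and Actl6a had 2 each, and Arid2, Actl6b and Phf10 had 1 each.

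RNA was measured on Affymetrix mouse expression arrays in lenses dissected at embryonic day 15.5 (E15.5) from 4 wild type and 4 dnBrg1 transgenic embryos, all of mixed strain background. dnBrg1 is a mutant Brg1 that cannot use ATP and interferes with the normal protein. It carries a FLAG tag and is made in postmitotic lens fiber cells from a fragment of the αA-crystallin promoter, so the cells of the lens epithelium are not its intended site. The transgenic embryos descend from 1 heterozygous founder, and the wild type embryos were littermates. All 8 samples retain the endogenous Brg1 gene. The 4 samples of a group are called biological replicates, p-values measure only the spread between them, and the precision is limited by how many arrays there are.

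SWI/SNF complexes use the ATPase Brg1 or its relative Brm to slide or evict nucleosomes. Accessory subunits distinguish forms of the complex: Arid1a belongs to the BAF form, whereas Arid2, Pbrm1 and Phf10 belong to the PBAF form, and an actin-related protein, Actl6a or Actl6b, sits in both. In the nervous system Actl6a is found in dividing progenitors and is exchanged for Actl6b when neurons leave the cell cycle.

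The upstream sequences of Actl6a and Phf10 are shown because these were the members whose brightest probe set was upregulated in dnBrg1 lenses. Each holds 250 bases ending just before the transcription start in RefSeq (GRCm38.p6), written 5′ to 3′ on the gene's strand. Capitals mark GGGCGG, the core of a GC box, on either strand (CCGCCC is its reverse complement). The Actl6a window is chr3:32708296-32708545 on the plus strand and the Phf10 window is chr17:14961261-14961510 on the minus strand.
Actl6a: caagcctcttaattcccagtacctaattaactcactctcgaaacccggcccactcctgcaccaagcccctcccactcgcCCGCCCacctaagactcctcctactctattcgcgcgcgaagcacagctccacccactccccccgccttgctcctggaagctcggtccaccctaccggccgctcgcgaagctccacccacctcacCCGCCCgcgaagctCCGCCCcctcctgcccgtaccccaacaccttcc
Phf10: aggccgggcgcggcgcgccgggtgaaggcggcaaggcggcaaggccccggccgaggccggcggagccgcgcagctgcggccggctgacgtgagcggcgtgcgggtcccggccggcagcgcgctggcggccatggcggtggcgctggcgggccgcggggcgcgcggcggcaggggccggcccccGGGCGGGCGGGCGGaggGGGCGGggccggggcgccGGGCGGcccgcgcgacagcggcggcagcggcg

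GGGCGG was found 3 times in the Actl6a window and 5 times in the Phf10 window, where neighboring matches overlap. Among 32851 windows of this length in the same table, 32.7% held it at least once. The GC content was 64.8% for Actl6a and 88.4% for Phf10, against a median of 52.4% over all windows. A promoter was listed for 5 of the 6 genes. Arid1a, which has 2 windows, held GGGCGG once in one and 7 times in the other, and Pbrm1 and Actl6b had no match. Actl6b instead held CCAAT 3 times, a motif found in 33.8% of all windows, and Pbrm1 held CACGTG once, found in 6.0%. TATAAA (12.4% of all windows) and GAANNTTC (6.7%) were searched on both strands as well and were not found in any of these members' windows. These matches describe the letters only.

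The array controls differed between the groups. The array carries probe sets for the 3′ and 5′ parts of Gapdh and β-actin, and the mean 3′ minus 5′ difference on the log2 scale averaged 2.05 (SD 0.52, n = 4) for wild type samples and 0.62 (SD 0.03, n = 4) for dnBrg1 samples, without overlap (two-sided exact permutation test, p = 0.0286, the smallest that 4 against 4 samples allow). In wild type it was lowest in replicate 3 (1.43) and highest in replicate 2 (2.66). Polysome-bound RNA is named in the descriptions of 6 samples, while those of dnBrg1 replicates 3 and 4 name total RNA alone. The molecule label, however, gives total RNA for every sample, and the paper's methods describe amplification of total RNA. Which fraction each array measured is therefore not settled. The arrays' medians were alike, from 196.9 to 208.96 on the linear scale. Of 10 lens fiber markers 7 were measured and each was bright, meaning a mean at or above the median of all probe sets (7.69). Their summed linear intensity did not overlap between the groups, from 81305.5 to 89410.2 in wild type and from 90627.9 to 99751.5 in dnBrg1 lenses. Bfsp1 (log2 fold change 1.54) and Gja3 (1.53) were upregulated while the others did not pass. When the fit took the control difference as a covariate, none of the 7 fiber markers was called. The part of the fiber marker difference in the members' values was not tested. Smarca4, which encodes Brg1, lay between 6.79 and 7.87 in wild type and between 9.65 and 9.88 in dnBrg1 lenses by its dimmer probe set (1426805_at). Its brighter probe set (1426804_at) ranged from 10.63 to 11.01 and from 10.55 to 10.73. Whether either probe set matches the transgene's cDNA was not tested.

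Of the 10 member probe sets, 4 were upregulated, 2 were downregulated and 4 did not pass the test in dnBrg1 lenses. The test was limma over all probe sets with a Benjamini-Hochberg adjusted p under 0.05, which called 40.8% of all probe sets, 19.8% higher and 21.0% lower. The upregulated probe sets belonged to Phf10, Pbrm1, Actl6a and Arid1a, and the downregulated ones to Pbrm1 and Actl6a, so the last-named genes moved both ways. Groups did not overlap for 6 of the 10, 4 of them higher and 2 lower, against 40.1% of all probe sets, 19.5% higher and 20.6% lower. The median log2 fold change, dnBrg1 over wild type, was 0.27 for the members and -0.08 for all probe sets. With each array centred on its median, or after quantile normalization, the split among the members was 3 higher and 3 lower, and so it was with a block for the replicate number, where 35.2% of all probe sets were called. By the methods' t-test at an unadjusted p under 0.05, 4 members were higher and 2 lower, against 46.9% of all probe sets called. When the fit took the control difference as a covariate, 2 of the 10 members were called, against 6.37% of all probe sets. These are whole-lens samples, in which fewer cells of a type and less RNA per cell cannot be told apart.

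**Figure D1:**
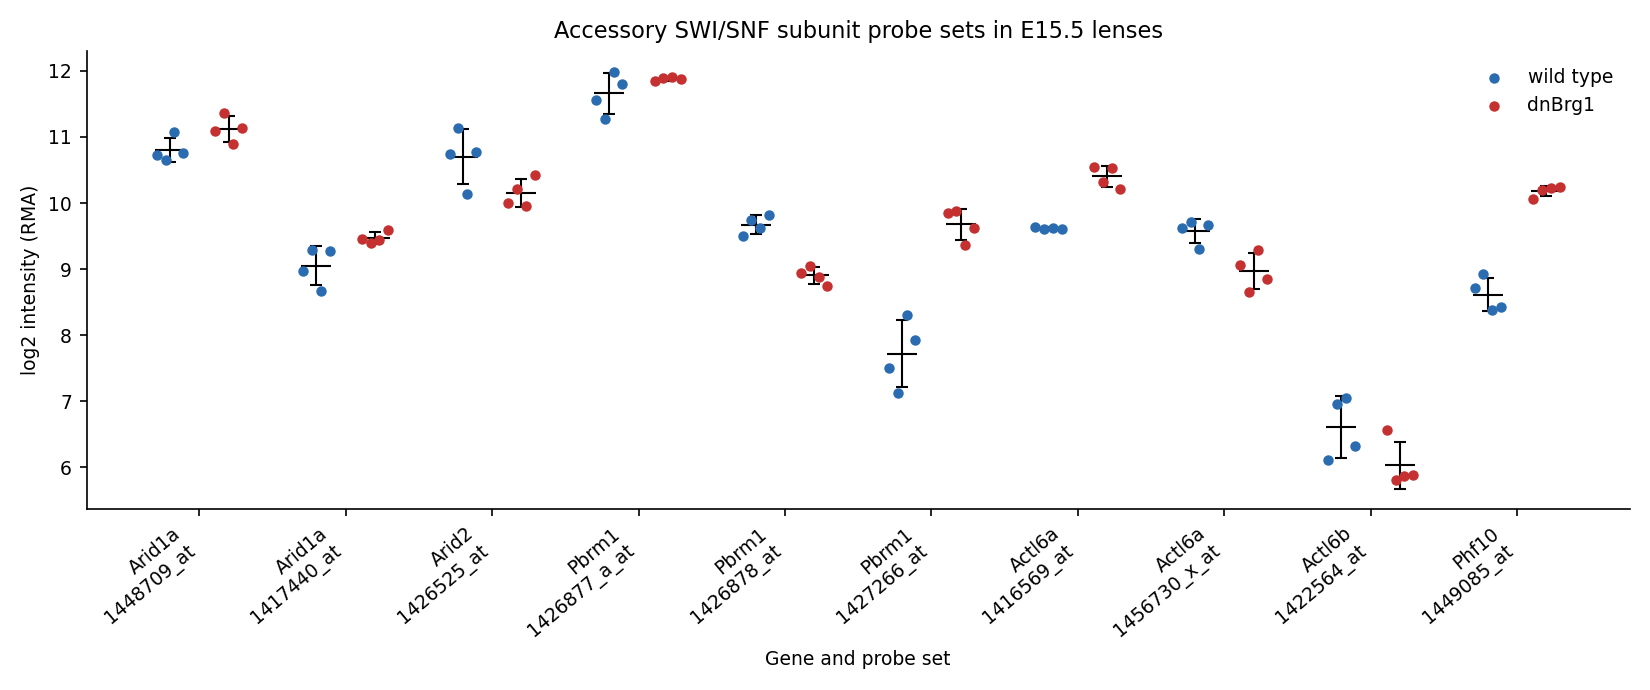
Log2 intensity (RMA) of each member probe set by sample, with wild type in blue, dnBrg1 in red, 4 points per group from replicate 1 at the left to 4 at the right, and black bars for the mean and SD. The groups lie apart by the widest margin for Phf10 (8.38 to 8.92 against 10.06 to 10.24) and overlap for Arid1a 1448709_at, Arid2, Pbrm1 1426877_a_at and Actl6b.

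Phf10 is a PHD finger protein of the PBAF form. Its log2 intensities (1449085_at) were 8.72, 8.92, 8.38 and 8.43 in wild type replicates 1 to 4 and 10.06, 10.20, 10.22 and 10.24 in dnBrg1 replicates 1 to 4. No wild type sample reached the dnBrg1 samples, with a gap of 1.14 between the groups. Phf10 transcripts were upregulated 2.97-fold (log2 fold change 1.57 ± 0.14 SE, limma adjusted p = 3.88e-05). The 4 dnBrg1 samples spanned 0.18 and the wild type samples 0.54. The log2 fold change was 2.07 ± 0.27 SE with the control covariate (limma adjusted p = 0.0131). That covariate varied mostly among wild type samples (SD 0.52, against 0.03 in dnBrg1), so its slope rests mainly on them. Phf10 was called under all 20 alternative settings, this one included (adjusted p from 1.26e-05 to 0.0131).

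Pbrm1 encodes polybromo-1, the bromodomain protein that reads acetylated histones in the PBAF form. Its probe sets did not share a direction. With the brightest (1426877_a_at) the log2 intensities were 11.57, 11.27, 11.99 and 11.81 in wild type and 11.84, 11.89, 11.91 and 11.87 in dnBrg1 lenses. The dnBrg1 samples were nearly level, within 0.07 of each other, and lay inside the wild type range. The log2 fold change of 0.22 ± 0.15 SE did not pass (limma adjusted p = 0.266, and from 0.0733 to 0.572 over the alternatives).

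The second Pbrm1 probe set (1426878_at) gave 9.50, 9.75, 9.62 and 9.82 in wild type and 8.94, 9.05, 8.88 and 8.74 in dnBrg1 lenses. All dnBrg1 samples were below all wild type samples, and the signal fell by 0.77 on the log2 scale (SE 0.11, limma adjusted p = 0.000603). The dimmest (1427266_at) gave 7.51, 7.13, 8.31 and 7.93 in wild type and 9.85, 9.88, 9.37 and 9.63 in dnBrg1 lenses. Here all dnBrg1 samples were above all wild type samples, a 3.89-fold increase (log2 fold change 1.96 ± 0.24 SE, limma adjusted p = 0.000230). With the control covariate the log2 fold changes were -0.50, -0.53 and 0.83 in the order given, and none was called (adjusted p = 0.269, 0.239 and 0.295).

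The disagreement within Pbrm1 was also set out as differences between probe sets on the same array, which cancel what an array adds to both. The brightest minus the second probe set was 2.06, 1.52, 2.37 and 1.99 in wild type and 2.90, 2.84, 3.03 and 3.13 in dnBrg1 lenses. Every dnBrg1 value was the larger, by 0.99 on average (two-sided exact permutation test over 70 assignments, p = 0.0286, 0.0429 adjusted over 6 pairs). The brightest minus the dimmest was 4.06, 4.14, 3.68 and 3.88 in wild type and 1.99, 2.01, 2.54 and 2.25 in dnBrg1 lenses. Every dnBrg1 value was the smaller, by -1.74 on average, with the same exact p. The ranges of the separate probe sets already kept both differences from overlapping, whichever values were matched. These exact p-values therefore add nothing to the calls of the probe sets. As the second probe set was called lower and the dimmest higher, no single direction for Pbrm1 transcripts describes these data. The position of each probe set on the transcript was not used here, and the part of the control 3′ to 5′ difference in this split was not tested.

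Actl6a encodes BAF53A, the actin-related subunit of progenitor complexes. Its brightest probe set (1416569_at) gave 9.63, 9.60, 9.63 and 9.61 in wild type and 10.55, 10.31, 10.53 and 10.22 in dnBrg1 lenses. The wild type samples lay within 0.03 of each other and the dnBrg1 samples were all higher, spread over 0.34. Actl6a was upregulated 1.72-fold by this probe set (log2 fold change 0.78 ± 0.11 SE, limma adjusted p = 0.000382). With the control covariate the estimate was 0.76 ± 0.25 SE and the call was lost (adjusted p = 0.107, the highest over the alternatives, of which the lowest was 0.000141).

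The other Actl6a probe set (1456730_x_at) bears the suffix _x_at, which Affymetrix gives to sets with probes that may also match other sequences. It gave 9.62, 9.71, 9.30 and 9.66 in wild type and 9.06, 8.66, 9.29 and 8.85 in dnBrg1 lenses. The groups nearly met, as dnBrg1 replicate 3 lay 0.01 below wild type replicate 3. The signal fell by 0.61 (SE 0.16, limma adjusted p = 0.0118), and with the control covariate the log2 fold change was -0.18 ± 0.35 SE and was not called (adjusted p = 0.805, the highest over the alternatives, of which the lowest was 0.00602). Within an array, 1416569_at minus 1456730_x_at was 0.01, -0.11, 0.33 and -0.05 in wild type and 1.49, 1.66, 1.24 and 1.37 in dnBrg1 lenses. These values did not overlap and differed by 1.39 (exact permutation p = 0.0286, adjusted p = 0.0429). As each probe set alone separated the groups, in opposite directions, their difference had to separate them too. This p therefore adds nothing to the calls of the probe sets. The increase of Actl6a transcripts rests on its brightest probe set alone.

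Actl6b encodes BAF53B, the counterpart found in neuronal complexes. Its only probe set (1422564_at) was the only member that was not bright, at 6.11, 6.96, 7.04 and 6.32 in wild type and 6.56, 5.80, 5.87 and 5.88 in dnBrg1 lenses. All 8 values were above the array's Bacillus gene controls, whose highest single value was 5.31. In dnBrg1 lenses replicate 1 stood above the other three, which lay below every wild type sample, and replicate 1 itself lay inside the wild type range. The log2 fold change of -0.58 ± 0.25 SE did not pass (limma adjusted p = 0.0908). It passed without dnBrg1 replicate 1 (-0.75, adjusted p = 0.0350) or without wild type replicate 1 (-0.74, adjusted p = 0.0399), the lowest values over the alternatives, which reached 0.625.

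Markers of neurons differed between the groups too. Of 14 neuronal genes 9 were downregulated and 1, Tubb3, was upregulated, with a median log2 fold change of -0.95. Their summed linear intensity ranged from 14794.5 to 25646.9 in wild type and from 10620.1 to 16789.1 in dnBrg1 lenses. The highest dnBrg1 sum and the lowest wild type sum belonged to dnBrg1 replicate 1 and wild type replicate 1, the samples whose Actl6b values lay nearest to the other group. The remaining wild type samples did not keep the same order. Replicate 4 had the highest sum (25646.9) with an Actl6b value of 6.32, and replicate 3 had the highest Actl6b value (7.04) with a sum of 20625.6. Of the list's genes Rbfox3 was within the range of the Bacillus controls, and Gap43 was called with the control covariate (-1.74, adjusted p = 0.0433). All 3 retinal progenitor genes measured were downregulated as well, with sums from 8267.2 to 9462.2 and from 3994.8 to 4868.3. Other lists moved as well. The 5 mesenchyme genes did not pass, but their sums were 9577.9 and 8930.7 in dnBrg1 replicates 1 and 4, beside 757.1 and 1524.8 in replicates 2 and 3 and 1559.7 to 4559.4 in wild type. Macrophage sums lay between 3593.3 and 4810.97 in wild type and between 1446.4 and 2773.97 in dnBrg1 lenses, with Csf1r downregulated and 3 of the 5 genes upregulated. The part of these markers in the Actl6b values was not tested.

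**Figure D2:**
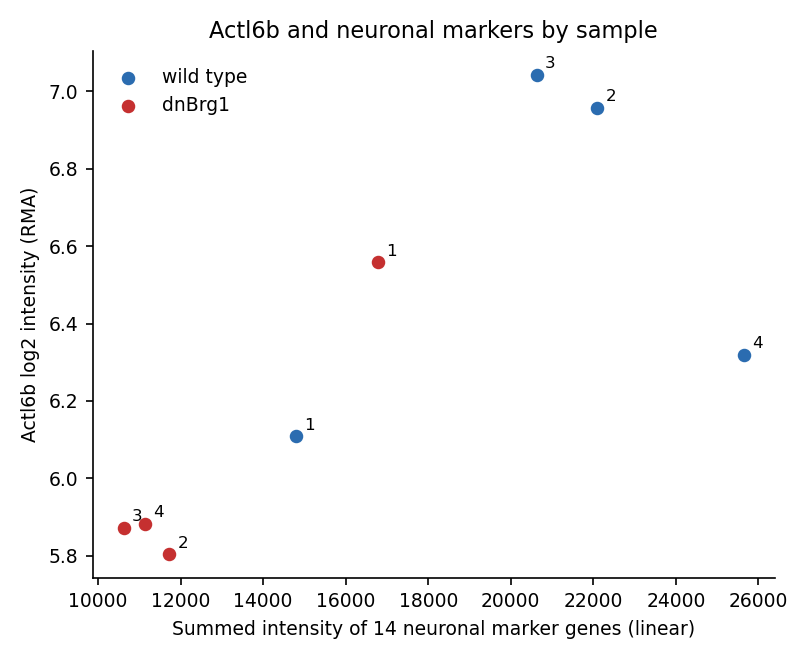
Actl6b log2 intensity against the summed linear intensity of 14 neuronal marker genes, 1 point per sample with its replicate number, wild type in blue and dnBrg1 in red. The samples numbered 1 (sums of 14794.5 in wild type and 16789.1 in dnBrg1) lie between the other dnBrg1 samples and the other wild type samples on the horizontal axis.

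Since Actl6a and Actl6b are alternatives in the complex, their difference on each array was compared. Actl6a (1416569_at) minus Actl6b was 3.52, 2.64, 2.58 and 3.29 in wild type and 3.99, 4.51, 4.65 and 4.33 in dnBrg1 lenses. All dnBrg1 values were the larger, and the shift was 1.36 (exact permutation p = 0.0286, adjusted p = 0.0429). The gap between the groups in 1416569_at (0.58) was wider than their overlap in Actl6b, so the difference had to separate them. This p therefore adds nothing to the call of 1416569_at and is no evidence for a change of Actl6b. The size of the difference within a sample has no meaning, since a probe set's level cannot be set against another's, but its shift between groups does not depend on that. With 1456730_x_at in place of 1416569_at the Actl6a change was itself negative (-0.61, beside -0.58 for Actl6b).

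Arid1a encodes the large AT-rich interaction subunit of the BAF form. With its brighter probe set (1448709_at) the log2 intensities were 10.73, 10.66, 11.07 and 10.76 in wild type and 11.09, 11.36, 10.89 and 11.14 in dnBrg1 lenses. Wild type replicate 3 exceeded dnBrg1 replicate 3, so the groups overlapped. The log2 fold change of 0.32 ± 0.13 SE did not pass (limma adjusted p = 0.0883, and from 0.0282 to 0.870 over the alternatives). It passed without wild type replicate 3 (0.41, adjusted p = 0.0282) or with array weights (0.36, adjusted p = 0.0448), and with the control covariate it was -0.10 ± 0.29 SE.

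The dimmer Arid1a probe set (1417440_at) gave 8.97, 9.29, 8.66 and 9.28 in wild type and 9.45, 9.39, 9.44 and 9.59 in dnBrg1 lenses. The groups were separated by 0.10. The log2 fold change of 0.42 ± 0.15 SE passed narrowly (limma adjusted p = 0.0486), and 12 of 20 alternative settings ended the call, among them centring or quantile normalization of the arrays. Leaving out wild type replicate 1 (adjusted p = 0.103) or 3 (0.0729), or dnBrg1 replicate 1 (0.0887), 2 (0.0753), 3 (0.0862) or 4 (0.120), also ended it, within a range of 0.0210 to 0.232 over all alternatives. With the control covariate the estimate was higher, 1.17 ± 0.23 SE (adjusted p = 0.0285). The 2 Arid1a probe sets did not differ detectably in their response (-0.10, exact permutation p = 0.743). The differences on the arrays ran from 1.37 to 2.41 in wild type and from 1.45 to 1.97 in dnBrg1 lenses.

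Arid2, the corresponding AT-rich interaction subunit of the PBAF form, gave 10.74, 11.13, 10.13 and 10.78 in wild type and 10.00, 10.21, 9.96 and 10.42 in dnBrg1 lenses (1426525_at). Wild type replicate 3 lay among the dnBrg1 samples, and the other wild type samples lay above all of them. The log2 fold change of -0.55 ± 0.20 SE did not pass (limma adjusted p = 0.0572). It passed once wild type replicate 3 was left out (-0.74, adjusted p = 0.00481, the lowest over the alternatives, of which the highest was 0.331). Centring the arrays on their medians also brought it past the threshold (-0.59, adjusted p = 0.0480), as did a block for the replicate number (-0.55, adjusted p = 0.0370), whereas the control covariate turned its sign (0.54 ± 0.31 SE, adjusted p = 0.331).

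The ARID subunits that mark the BAF and PBAF forms were compared in the same way. Arid1a (1448709_at) minus Arid2 was -0.02, -0.48, 0.94 and -0.02 in wild type and 1.09, 1.15, 0.94 and 0.72 in dnBrg1 lenses. Wild type replicate 3 reached the dnBrg1 values while the other wild type samples did not. The shift of 0.87 did not pass (exact permutation p = 0.0857, adjusted p = 0.103). It was 1.14 without that sample (exact permutation, adjusted p = 0.0343). Since that sample alone overlapped the dnBrg1 values, leaving it out fixes the exact p at the smallest possible. This p is therefore no further evidence for the shift.

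**Figure D3:**
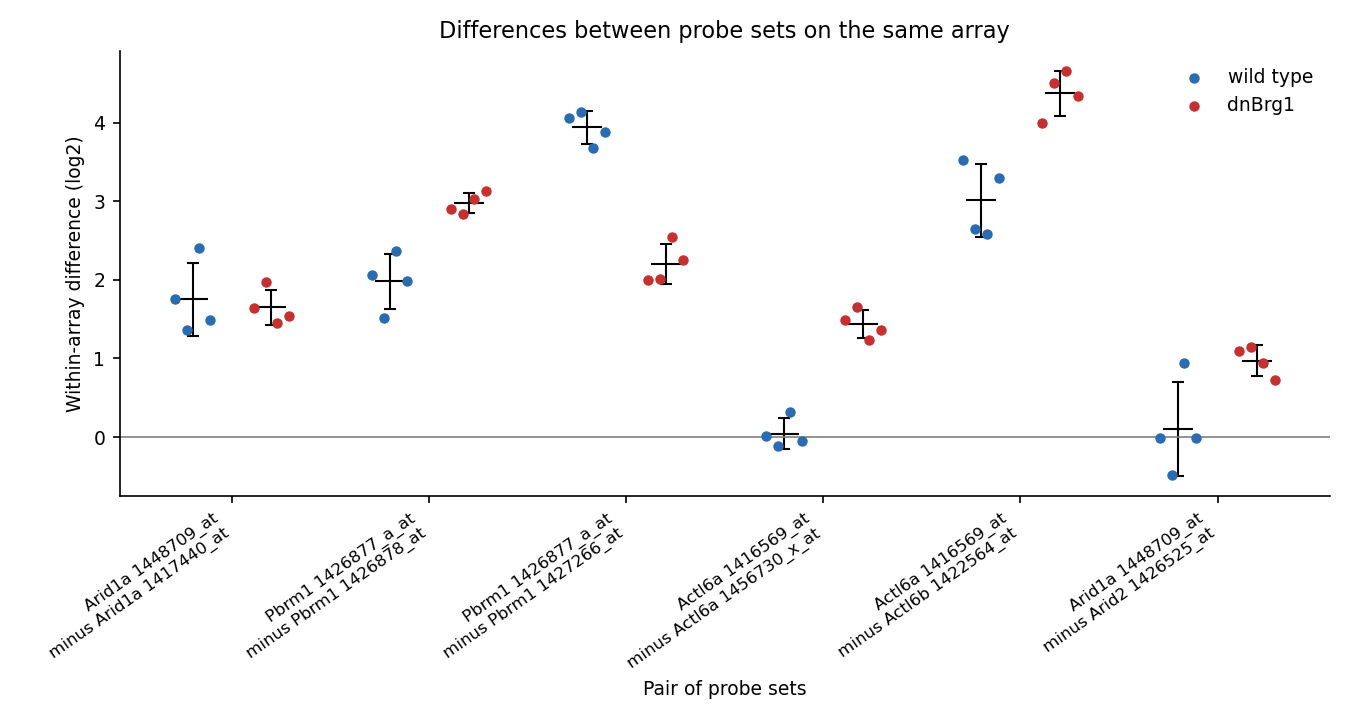
Differences in log2 intensity between pairs of probe sets on the same array, with wild type in blue, dnBrg1 in red, 4 points per group, and black bars for the mean and SD. In 4 of the 6 pairs the groups do not overlap, including both Pbrm1 pairs and the Actl6a pair, and the Arid1a pair overlaps almost fully.

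Wild type samples differed among themselves along with the controls. In 7 of the 10 member probe sets, wild type replicates 3 and 2, which had the smallest and largest control 3′ to 5′ difference, were also the extremes of the wild type group, as they were in 34.7% of all probe sets. In 5 of these 7 replicate 3 lay on the side of the dnBrg1 samples, namely Arid1a 1448709_at, Arid2, Pbrm1 1426877_a_at and 1427266_at, and Actl6a 1456730_x_at. In the other two, Arid1a 1417440_at (8.66) and Phf10 (8.38), replicate 3 was the lowest wild type sample and so lay farthest from the dnBrg1 samples. How replicate 3 split between these sides over all probe sets was not counted. Phf10 and Arid1a 1417440_at were the members called with the control covariate. The wild type SD was the larger of the pair in 7 of the 10 members, with a median of 0.28 against 0.18 in dnBrg1 lenses. The same held for 70.1% of all probe sets, with medians of 0.23 and 0.15. Actl6a 1416569_at was an exception (0.01 against 0.16).

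**Figure D4:**
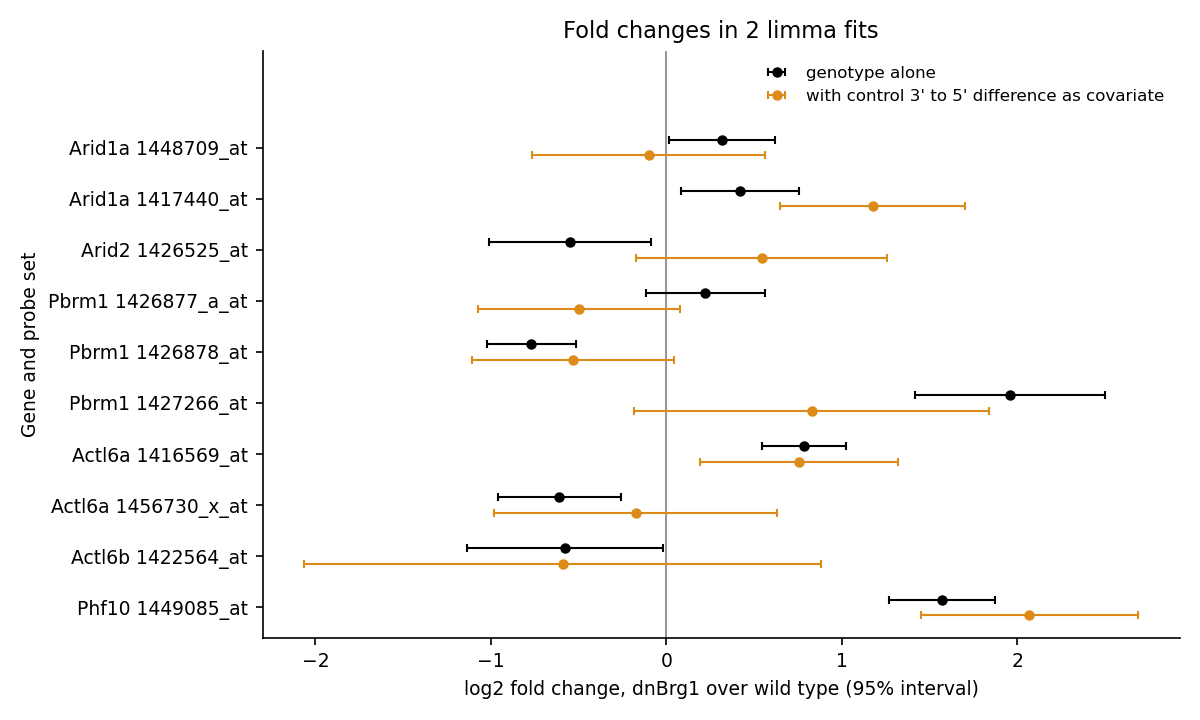
Log2 fold change of each member probe set, dnBrg1 over wild type, with 95% intervals from limma for genotype alone (black) and with the control difference as a covariate (orange). Intervals widen with the covariate, the estimates of Arid1a 1448709_at, Arid2 and Pbrm1 1426877_a_at change sign, and the estimates for Phf10 are 1.57 and 2.07, with both intervals above 0.

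The other SWI/SNF subunits give the setting. Of 23 listed genes 17 were measured, with 29 probe sets. By the brightest probe set of each gene 7 were upregulated, 2 were downregulated and 8 did not pass, with a median log2 fold change of 0.30, beside 2 upregulated, 0 downregulated and 4 not passing among the 6 accessory genes, whose median was 0.27. By the same rule 40.7% of 12393 genes were called, 17.5% higher and 23.3% lower. At an unadjusted limma p under 0.05 a further 3 accessory genes passed, Arid1a in the direction of an increase and Arid2 and Actl6b in that of a decrease, which makes 5 of 6 against 49.6% of all genes. By the methods' t-test at its own p under 0.05 none of the 3 passed. The upregulated genes outside the accessory group were the scaffold subunit Smarcc1 (log2 fold change 1.48), Smarcd1 (1.31), Smarcd3 (1.44), the HMG-domain subunit Smarce1 (0.30), the bromodomain gene Brd7 of the PBAF form (0.51), Bcl7b (0.90) and Ss18 (0.52). Smarce1 passed narrowly by this probe set (limma adjusted p = 0.0473), with overlapping groups. Further probe sets of Smarce1 (1.55) and Smarcc1 (2.30) were called higher as well. The further probe set of Ss18 (0.18) did not pass, and that of Smarcd1 (-0.44) was called lower. The genes downregulated by their brightest probe set were Smarca2 (-0.48), which encodes Brm, and the core subunit Smarcb1 (-0.34). Each had a further probe set that was called higher (1.13 for Smarca2 and 1.35 for Smarcb1). The paper reports a moderate increase of Smarca2 transcripts, both on the arrays and by quantitative PCR. No single direction is therefore given here for either gene. None of these 17 genes was called by its brightest probe set with the control covariate, and 2 of their 29 probe sets were.

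Opposite calls within a gene were not limited to Pbrm1 and Actl6a. Of 11 other subunit genes with several probe sets, Smarca2, Smarcb1 and Smarcd1 had calls in both directions, 5 had calls of an increase alone, 2 of a decrease alone and 1 had none. Among the 3 accessory genes with several probe sets, 2 had opposite calls and Arid1a had a call of an increase alone. Over the whole array 13.8% of 4956 genes with several probe sets had opposite calls. The downward call of Smarcd1 came from a probe set (1420240_at, means of 3.18 and 2.74) that stayed within the range of the Bacillus controls in every sample, as did one of the decreases alone (Dpf1 1420529_at, 4.61 and 3.40). Without probe sets of that kind 2 of 9 other subunit genes, 2 of 3 accessory genes and 16.4% of 3937 genes on the array had opposite calls. For Smarcb1 the log2 fold changes were -0.34 and 1.35, and for Smarca2 they were -0.48 and 1.13.

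**Figure D5:**
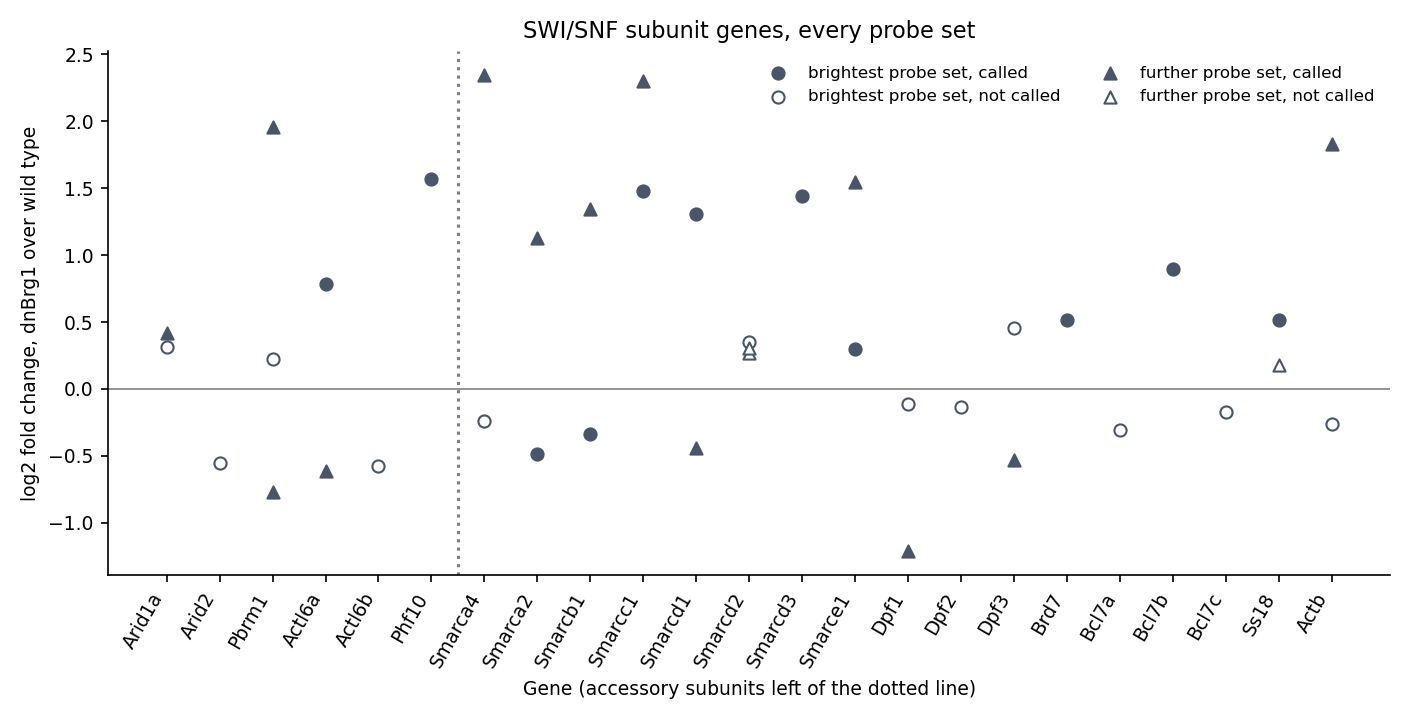
Log2 fold change, dnBrg1 over wild type, of every probe set of the accessory subunit genes (left of the dotted line) and of 17 other SWI/SNF subunit genes, with circles for the brightest probe set of a gene, triangles for further ones, and filled symbols for limma adjusted p under 0.05. Filled symbols lie on both sides of 0 for Pbrm1, Actl6a, Smarca2 and Smarcb1, and for Smarcd1 the one below 0 is a probe set within the range of the Bacillus controls.

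The genes whose pattern over the 8 samples was most like each accessory subunit were listed among 10441 bright probe sets of 1 gene by Pearson's r. The samples form 2 groups, so each r includes the difference between them, and no test was made. For Phf10 they were Smc1a, Scfd1 and Prep, each with r = 0.996. For Actl6a they were Trmt10c (0.992), Mfsd5 (0.990) and Mbd2 (0.989), and for Arid2 Agfg1 (0.990), Gprasp1 and Mettl23 (0.977 each). The values were lower for Pbrm1, with Tmem87a (0.977), Mospd1 (0.976) and L3hypdh (0.975), and for Arid1a, with Arhgef10 (0.976), Odf2 (0.970) and Ero1b (0.968). Actl6b had the least close matches, Apbb1 (0.935), Atg5 (0.934) and F8a (0.913).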

How the data were processed

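Lens RNA of 4 wild type and 4 dnBrg1 samples was amplified from 50 ng per array on the NuGEN platform. The authors processed the scans with robust multichip average (RMA, version not given in the sources used here) and deposited linear intensities, which were taken to log2. Since RMA makes array distributions alike, it would remove a change that most transcripts share. Groups followed the genotype labels. After 64 control probe sets were set aside, 22626 were fitted in R 4.3.3 with lmFit and eBayes of limma 3.58.1 for the dnBrg1 against wild type contrast, with no covariate and no filter. Counts across genes used the probe set with the highest mean among those naming the gene alone (12393 genes). Differences between probe sets, and those of the array controls, were compared by two-sided exact permutation tests over 70 assignments. The fit was checked on simulated data first. Gene symbols came from the platform annotation, and promoter windows from RefSeq (GRCm38.p6). Named genes were all members, the listed SWI/SNF subunits called by their brightest probe set, Smarca4, the 3 genes most like each member, and defining markers. Bfsp1, Gja3, Csf1r and further probe sets of Smarcb1, Smarca2, Smarcc1, Smarcd1, Smarce1, Ss18 and Dpf1 were named after their values were seen. The members and lists were chosen with earlier results of these data known. Alternatives were other scalings, 16 added before log2, bright probe sets alone, array weights, another variance model, a replicate block, leaving out each sample, the described RNA fraction, the control 3′ to 5′ difference, the methods' t-test and stricter thresholds.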

Additional observations from a re-analysis of the deposited data

Results flagged for a closer look

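In dnBrg1 lenses the Actl6b value of replicate 1 (6.56 on the log2 scale) stood apart from the other three, of which the nearest was 5.88. The gap was 0.896 of the group's range, above Dixon's critical value for 4 samples. It was the only such sample in the 20 groups of 4 examined over the 10 member probe sets, and chance alone gives about 5% of groups.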

How the results depend on the processing

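At the threshold of 0.05 Phf10 kept its call and direction over 20 alternative settings, and the called Pbrm1 and Actl6a probe sets lost theirs only when the control 3′ to 5′ difference entered the fit. That covariate left 2 members called higher and 0 lower (1 higher by the brightest probe set of a gene), 0 and 0 of the other SWI/SNF genes, and 808 higher and 634 lower of all probe sets. It turned the sign of Arid1a 1448709_at (-0.10), Arid2 (0.54) and Pbrm1 1426877_a_at (-0.50). The genotypes do not overlap in the control difference, so the parts of the 2 cannot be told apart.

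By the brightest probe set 1 member gene, Arid2, was called lower with arrays centred on their medians, quantile normalization, bright probe sets alone, an intensity trend with robust prior, array weights or the replicate block. At an adjusted p under 0.01, 1 member probe set was lower. Of the other SWI/SNF genes 4 were lower with array weights and with the methods' t-test unadjusted, 1 with the replicate block, dnBrg1 replicates 1 and 2 alone, the described RNA fraction as a covariate, an adjusted p under 0.01 and a gene's probe sets averaged, and 0 with a 1.5-fold minimum. Higher calls were 4 with dnBrg1 replicates 1 and 2 alone and 4 with the 1.5-fold minimum. Over all probe sets 2600 were lower with dnBrg1 replicates 1 and 2 alone, 3114 with the RNA fraction, 2820 at 0.01 and 2996 at 1.5-fold. The cause was not tested.

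With dnBrg1 replicates 1 and 2 alone the Arid1a pair reversed to 0.050. The 4 pairs that had passed gave 0.89 and -1.93 (Pbrm1), 1.53 (Actl6a) and 1.24 (Actl6a minus Actl6b) with an adjusted p of 0.1 each, and 2 against 4 samples cannot go below an exact p of 0.0667. Leaving out each sample in turn gave -0.23 to 0.12 for the Arid1a pair, where it reversed without wild type replicate 3, 0.67 to 1.14 for Arid1a minus Arid2, 0.84 to 1.12 and -1.85 to -1.67 for the Pbrm1 pairs, 1.32 to 1.49 for the Actl6a pair and 1.22 to 1.53 for Actl6a minus Actl6b. It gave 3 to 4 members higher and 2 to 3 lower, 2 to 3 and 0 to 1 by the brightest probe set (1 lower without wild type replicate 1 or 3 or dnBrg1 replicate 1), 6 to 8 and 1 to 3 of the other SWI/SNF genes (1 lower without wild type replicate 4 or dnBrg1 replicate 2 or 4), and 3924 to 4978 and 3776 to 5194 of all probe sets.

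The replicate numbers did not pair the samples: same-numbered deviations correlated at -0.19, -0.01, -0.05 and 0.16, and no dnBrg1 sample correlated best with its own number. The replicate block called 35.2% of all probe sets and left 3 members higher and 3 lower, with Arid2 gained and Arid1a 1417440_at lost (0.42, adjusted p = 0.0644). Signal over background limits Actl6b, the only member below the median of all probe sets.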
